A study of Homo sapiens with 12 samples.

Results

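The cytosolic ribosome makes the proteins of the cell, and the mRNAs of its own proteins are among the most abundant in growing cells. The genes described here are the protein-coding genes with symbols of the RPL, RPS and RPLP series, together with RPS4X and RPSA. A gene was kept when its normalised read count was at least 10 in at least 3 libraries, which 76 of the 77 matching genes did, among 19281 kept genes of all kinds. Of these 76, 46 encode proteins of the large subunit and 30 of the small subunit.

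Poly-A RNA was sequenced from CUTLL1 (so spelled in the sample titles and CUTTL1 in other labels), a human line of T-lineage acute lymphoblastic leukaemia in which NOTCH1 is rearranged and active. Cells were given Compound E at 1 µM or the solvent DMSO; the compound inhibits gamma-secretase (GSI below), the protease that releases the active intracellular part of NOTCH1. There were 4 groups of 3 libraries, labelled GSI 48 h, DMSO 48 h, GSI 12 h and DMSO 12 h, all of the same line in medium with 20% serum, and they allow comparison of the inhibitor with solvent at each time and of the later with the earlier harvest under each treatment. The labels do not say that the 3 libraries of a group came from separate cultures, so the p-values cover only library-to-library spread, which may be technical.

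Each ribosomal protein is assembled with ribosomal RNA in the nucleolus, into a large subunit that forms peptide bonds and a small subunit that reads the mRNA. Their mRNAs typically begin with a C followed by an unbroken run of pyrimidines, the terminal oligopyrimidine (TOP) start, through which the kinase mTORC1 and the RNA-binding protein LARP1 regulate their translation and stability. In T-cell leukaemia, NOTCH1 and its target MYC are known to promote ribosome production and cell growth, and the ribosomal protein genes RPL5, RPL10, RPL11 and RPL22 are recurrently mutated.

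Recovered depth was 73939612 to 133774239 reads in GSI 48 h libraries, 94803786 to 160702764 in DMSO 48 h libraries, 75781643 to 101491147 in GSI 12 h libraries and 109616415 to 122490751 in DMSO 12 h libraries. T-lineage markers were present in every library, with CD3E at 53532 to 76042, LCK at 44044 to 55655 and, lowest of the 8 examined, PTCRA at 700.1 to 4282 normalised reads, while the B-cell markers MS4A1 and CD22 were listed at 0 throughout and CD79A was at 659 to 3042. Classical NOTCH1 targets separated the harvest times more than the treatments. DTX1, a direct NOTCH1 target, was at 7426, 8123 and 9186 in GSI 48 h, 11488, 12789.5 and 10524 in DMSO 48 h, 48204, 70586 and 64303 in GSI 12 h and 76829, 94663 and 82974 in DMSO 12 h libraries. Every DMSO 48 h library was thus below every GSI 12 h library, and over 10 NOTCH1 targets the median log2 fold change was -0.42 for GSI at 48 h, -0.57 for GSI at 12 h, -1.93 for time under DMSO and -1.76 for time under GSI. A list of 17 hypoxia response genes separated the treatments instead, with medians of 1.62 for GSI at 48 h and 2.74 at 12 h, and within both GSI groups the library numbered 2 was the lowest for this list. Whether the GSI 12 h and DMSO 48 h libraries carry the treatment and time that their labels give cannot be told apart from a change over time, so groups are called by their labels throughout. If these 2 groups were exchanged, each comparison of times below would be one of treatments and each comparison of treatments one of times. Member counts without a replicate term for GSI at each time and for time under GSI are also given without both GSI libraries numbered 2. Other counts that rest on GSI libraries are not.

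The annotated start sites of these genes carry the sequence feature for which the family is known. RefSeq start sequences (GRCh38.p14) were matched for 62 of the 76 genes, 38 of the large and 24 of the small subunit. The first transcribed base was C in 46 of them (74.2%), against 14.7% of 35116 starts in the whole table, and in 42 (67.7%, against 4.07%) this C was followed by at least 4 further C or T bases. These were 25 of the 38 large subunit genes (65.8%) and 17 of the 24 small subunit genes (70.8%). The lines below show some members with such a start that are named in the results, each as 30 bases from 10 before the start. The run of C and T that begins at the annotated first base is in capitals.
RPLP0, chr12:120201092-120201121, minus strand: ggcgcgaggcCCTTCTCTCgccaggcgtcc
RPL12, chr9:127451387-127451416, minus strand: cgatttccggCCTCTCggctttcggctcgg
RPL13A, chr19:49487598-49487627, plus strand: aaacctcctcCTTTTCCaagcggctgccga
RPL35, chr9:124861938-124861967, minus strand: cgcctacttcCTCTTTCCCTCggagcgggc
RPL36, chr19:5690285-5690314, plus strand: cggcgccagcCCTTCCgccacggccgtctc
RPL36A, chrX:101391001-101391030, plus strand: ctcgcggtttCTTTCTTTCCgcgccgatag
RPL39, chrX:119791611-119791640, minus strand: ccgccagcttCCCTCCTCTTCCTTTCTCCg
RPS6, chr9:19380217-19380246, minus strand: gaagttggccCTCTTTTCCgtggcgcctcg
RPS19, chr19:41860245-41860274, plus strand: ccccgtcgttCCCTTTCCCCTggctggcag
RPL39 had the longest run of all 62, at 19 bases. The next sequences are of genes without such a start at the annotated base, shown because RPL3, RPL17 and RPS26 were among the members furthest apart between treatments and RPL19 was among those that fell with time.
RPL3, chr22:39319604-39319633, minus strand: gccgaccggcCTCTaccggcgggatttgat
RPL17, chr18:49492446-49492475, minus strand: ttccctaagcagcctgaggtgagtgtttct
RPL19, chr17:39200273-39200302, plus strand: tctccccttcgcagataatgggaggagccg
RPS26, chr12:56041908-56041937, plus strand: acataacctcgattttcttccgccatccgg
RPL3 has a C start followed by only 3 further pyrimidines, RPL17 starts with A, and RPL19 and RPS26 start with G. These are the starts of database records and were not measured in these cells.

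Upstream motifs were searched on both strands in a window of 250 bases before to 50 bases after the start. The ETS core CCGGAAG was present in 21 of the 62 windows (33.9%), against 10.3% of all windows in the table. The GC box GGGCGG was present in 54.8%, against 45.0%. The core TGGGAA of RBPJ, the DNA-binding partner of NOTCH1, was in 24.2% of the windows of ribosomal protein genes and in 24.03% of all windows. The MYC E-box CACGTG was in 4.84%, against 7.26%, and the TATA box TATAAA in 8.07%, against 11.5%. Matches of different motifs were counted separately and could share bases, and a match describes only these letters in this window.

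**Figure D1:**
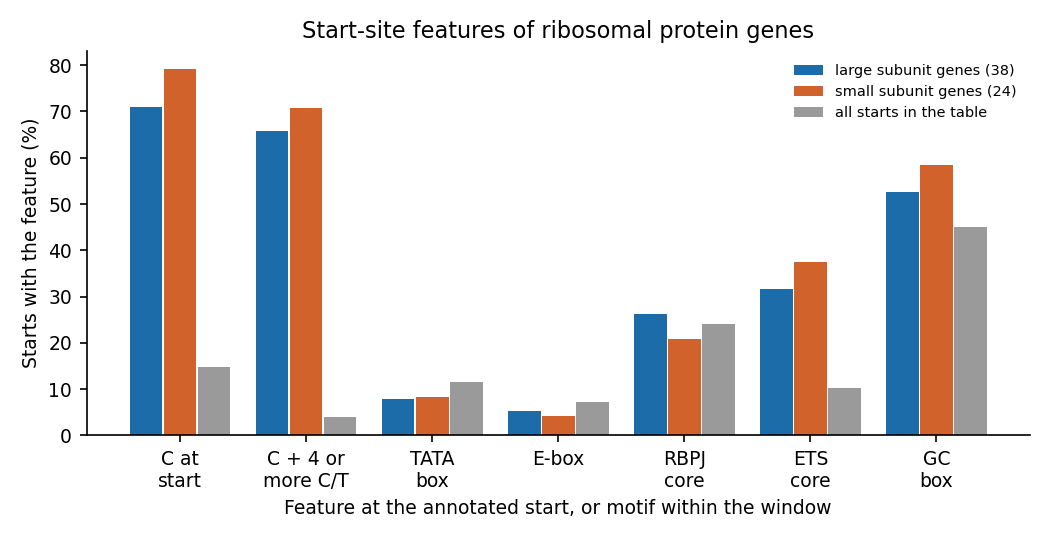
Percentage of RefSeq starts with each feature, for 38 large subunit genes (blue), 24 small subunit genes (orange) and all 35116 starts in the table (grey). C at the start, followed by 4 or more C or T bases, was present at 65.8% and 70.8% of large and small subunit starts and at 4.07% of all starts.

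Ribosomal protein transcripts made up 4.34% ± 0.371 (SD, n = 3) of recovered reads in GSI 48 h libraries, 4.2% ± 0.0847 in DMSO 48 h, 5.26% ± 0.316 in GSI 12 h and 4.89% ± 0.123 in DMSO 12 h libraries. Per kilobase of mRNA, the highest of the 76 was RPS2 of the small subunit, which averaged 203809.9 normalised reads per kilobase over all 12 libraries, followed by RPS27 and RPS29. At the low end were RPL17 with 1415 and RPL36A with 3540 normalised reads per kilobase, each of which overlaps a read-through gene on the same strand (RPL17-C18orf32 and RPL36A-HNRNPH2) that could take some of its reads. Their values are uncertain for that reason, as are those of 6 other members with a coding partner on the same strand. In all, 29 members have an antisense partner, and reads of the pair cannot be separated because strand use in counting is not given. Reads assigned to the 1567 listed ribosomal protein pseudogenes were 0.0121% to 0.0171% of each library, and the share of parent-gene reads lost to them by multiple mapping is unknown.

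The clearest pattern over the 4 groups was a lower level of nearly the whole family in libraries labelled 48 h than in those labelled 12 h, under either treatment label. To compare libraries, each gene's log2(value + 1) was taken relative to its own mean over the 12 libraries, and the median over the 76 genes was formed. In GSI 48 h libraries this median was -0.30, -0.21 and -0.03, against 0.10, 0.10 and 0.26 in GSI 12 h libraries. It was -0.16, -0.13 and -0.05 in DMSO 48 h libraries, against 0.04, 0.23 and 0.17 in DMSO 12 h libraries. All 6 libraries labelled 48 h were below 0 and all 6 labelled 12 h were above it. Over all 19281 genes the same measure lay between -0.00 and 0.01 in every library. The deposited values were already scaled by library size factors, which sets the typical gene near 0 in each library. The medians over all genes, here and in the comparisons below, are therefore no independent contrast. Libraries numbered 3 were the highest of their group in GSI 48 h, DMSO 48 h and GSI 12 h. Fewer cells of one state in a culture and less RNA per cell cannot be told apart in such bulk values, which are also relative to the rest of the RNA in a library.

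**Figure D2:**
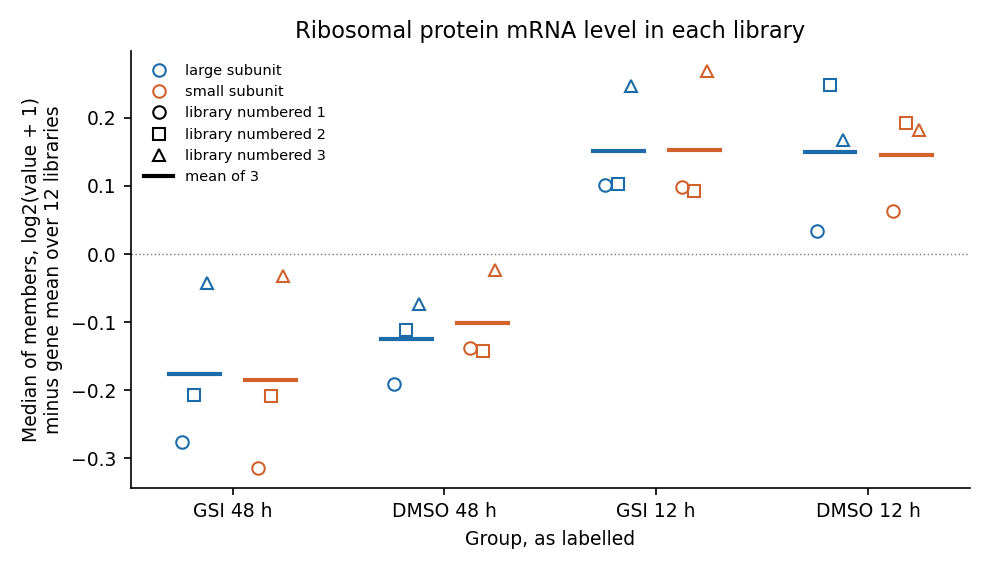
Median over 46 large subunit genes (blue) and 30 small subunit genes (orange) of the log2(value + 1) level relative to each gene's mean over 12 libraries, by group. Symbols are single libraries by their number and bars are means of 3. Both subunits lie below 0 in all 6 libraries labelled 48 h and above 0 in all 6 labelled 12 h.

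Between DMSO 48 h and DMSO 12 h, all 76 genes had a negative log2 fold change, with a range from -0.48 to -0.11 and a median of -0.26, so that the median level decreased by 16.3%. The median over all 19281 genes was -0.00, which the scaling sets near 0. In limma's fit without a replicate term 7 members fell and 0 rose at an adjusted p under 0.05, against 2.51% of all genes called lower and 2.03% called higher (4.53% either way). In 60 of the 76 every DMSO 48 h library was below every DMSO 12 h library and in 0 every one was above, against 13.1% and 11.2% of all genes. Libraries of the same number deviated together between the times (correlations of 0.82 to 0.85), and with a block for the number within treatment 74 members fell, against 15.2% of all genes. The 7 included RPS2, the large subunit proteins RPL14, RPL19 and RPL36, the stalk-base protein RPL12, and RPL36A.

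RPS2, which lies at the mRNA entry side of the small subunit, was at 175029, 166184 and 192302 normalised reads in DMSO 48 h libraries, against 220816, 244349.9 and 235607 in DMSO 12 h libraries. It was at 143027, 160852 and 184677 in GSI 48 h libraries, against 220584, 225699.8 and 239906 in GSI 12 h libraries. No 48 h library reached any 12 h library of its treatment, with log2 fold changes of -0.39 (SE 0.10, limma adjusted p = 0.0384) under DMSO and -0.50 (SE 0.10, limma adjusted p = 0.0113) under GSI. RPL36, a small protein at the surface of the large subunit, was at 19716, 19327 and 20937 in DMSO 48 h libraries, against 23848, 26415 and 27192 in DMSO 12 h libraries. It was at 16728, 17459 and 20452 in GSI 48 h libraries, against 24550.0, 24142 and 26745 in GSI 12 h libraries. Again the times did not overlap, with changes of -0.37 (SE 0.09, limma adjusted p = 0.0353) under DMSO and -0.47 (SE 0.09, limma adjusted p = 0.00903) under GSI.

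Between GSI 48 h and GSI 12 h, all 76 log2 fold changes were again negative, with a median of -0.32 (the median level decreased by 19.8%) and a range from -0.53 to -0.10, beside a median over all genes of -0.00. Here 21 members fell and 0 rose, 9 of the large and 12 of the small subunit, against 2.37% of all genes called lower and 1.62% called higher (3.98% either way). In 61 members every GSI 48 h library was below every GSI 12 h library and in 0 every one was above, against 9.91% and 9.94% of all genes. With the block within treatment 74 fell, against 16.1% of all genes (correlations of same-numbered libraries 0.72 to 0.77). Of the 7 members that fell under DMSO, 6 were among the 21 that fell under GSI (RPL12, RPL14, RPL19, RPL36 and RPS2 among them), and 48 members had no overlap between times under both treatments. The comparisons under DMSO and GSI share no library, and their log2 fold changes over the 76 genes had a Pearson r of 0.50 and a Spearman rho of 0.56, given as a description because the genes share libraries and the numbers may mark shared preparations.

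RPS19, a small subunit head protein that is mutated in Diamond-Blackfan anaemia, had the lowest fold change of the family under GSI over time. It was at 37884, 44179.7 and 43511 in GSI 48 h libraries, against 57687, 63603 and 59414 in GSI 12 h libraries, a log2 fold change of -0.53 (SE 0.09, limma adjusted p = 0.00499). In DMSO 48 h libraries it was at 51488, 54753 and 54938, against 61269, 73849.6 and 61701 in DMSO 12 h libraries, where the libraries also did not overlap and the change of -0.28 (SE 0.09, limma adjusted p = 0.108) was called only with the block within treatment (adjusted p = 0.0017 in limma). RPLP0, the scaffold of the P stalk that recruits translation factors, was at 137408, 150602 and 170620.1 in GSI 48 h libraries, against 199250.4, 199911 and 212091 in GSI 12 h libraries. Its change was -0.42 (SE 0.10, limma adjusted p = 0.0283), and under DMSO -0.32 (SE 0.10, limma adjusted p = 0.0805), which the block within treatment called lower (adjusted p = 0.000576 in limma).

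The number of calls over time depended on single libraries, although no called member changed sign when any of them was left out. Under DMSO the count of 7 was 0 without DMSO 12 h replicate 2, 1 without DMSO 12 h replicate 3 or without any 1 of the 3 DMSO 48 h libraries, and 8 without DMSO 12 h replicate 1. Under GSI the count of 21 was 5 without GSI 12 h replicate 1, 12 without GSI 12 h replicate 2, 8 without GSI 12 h replicate 3, 3 without GSI 48 h replicate 1, 5 without GSI 48 h replicate 2 and 29 without GSI 48 h replicate 3. It was 2 without both GSI libraries numbered 2. Of 6 fits that each left out 1 library of the groups compared, RPS19, RPS2 and RPL36 were called under GSI in all 6, RPLP0 in 1 and RPL19 in 0. Under DMSO, RPS2 and RPL36 were each called in 1 of 6. With the block within treatment the lowest count without a replicate number was 51 under DMSO and 66 under GSI. A comparison added after the data were seen, GSI 48 h against DMSO 12 h, leaves out both groups whose labels are in doubt. Its groups differ in both treatment and time, so a change there cannot be assigned to either. In it 55 of 76 members fell and 0 rose, with a median of -0.33. Of all genes, 18.4% were called lower and 15.8% higher (34.2% either way). In 53 members every GSI 48 h library was below every DMSO 12 h library and in 0 every one was above, against 25% and 23.7% of all genes. The count of 55 was 28 without GSI 48 h replicate 1 and 30 without DMSO 12 h replicate 2, and with upper-quartile scaling, which moved the median of all genes to 0.13, it was 29.

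Other genes of high level were split more evenly. Of 2481 other genes with a mean of at least 10000 normalised reads, a level that 73 of the 76 members reach, 57.8% had a negative fold change between DMSO 48 h and DMSO 12 h and 55.3% between GSI 48 h and GSI 12 h. That mean is only a floor, and levels above it were not matched to those of the members. Their median log2 fold changes were -0.03 and -0.02. The standard errors were alike, with a median of 0.10 in either set. The translation genes, assembly factors and mitochondrial ribosomal proteins described below also lay mostly below 0 over time.

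**Figure D3:**
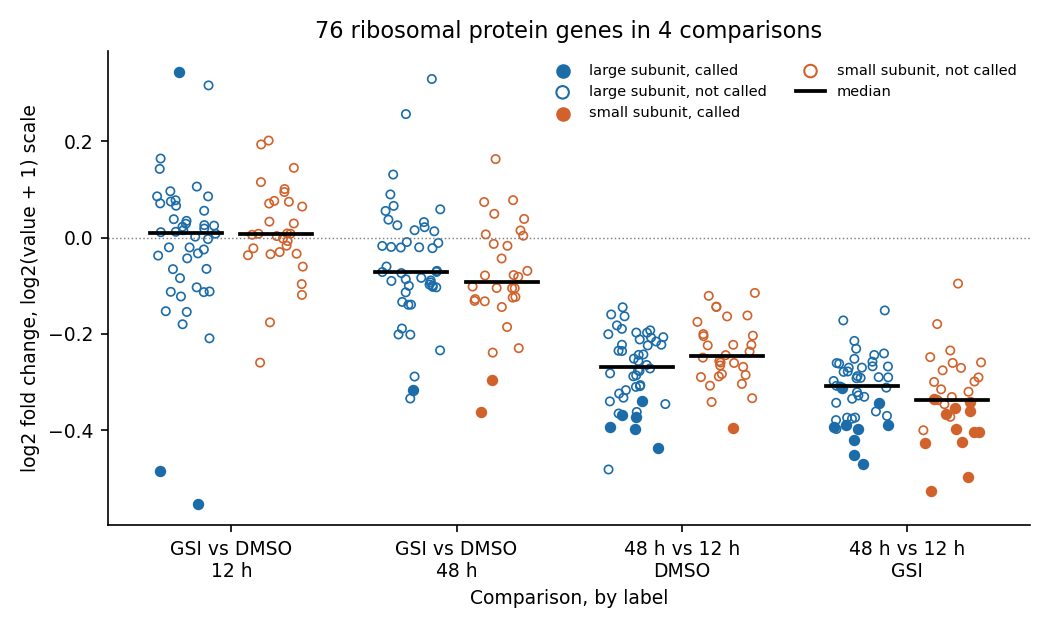
Log2 fold change, on the log2(value + 1) scale, of each of the 76 genes in 4 comparisons, for large (blue) and small (orange) subunit genes, with calls filled and black bars at medians. Both time comparisons lie wholly below 0, with medians of -0.26 under DMSO and -0.32 under GSI, and both treatment comparisons spread around 0.

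Fewer ribosomal protein mRNAs passed the test between treatments. Between GSI 12 h and DMSO 12 h the median log2 fold change over the 76 genes was 0.01, with 34 negative and 69 within 0.2 of 0. There 1 member rose and 2 fell, against 10.1% of all genes called higher and 11.4% called lower (21.5% either way). In 4 members every GSI 12 h library was above every DMSO 12 h library and in 6 every one was below, against 17.1% and 19.3% of all genes.

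RPL13A, a large subunit protein that also has a described role in interferon-gamma dependent silencing of translation, was the member that rose. It was at 113905, 101292 and 128036 normalised reads in GSI 12 h libraries, against 84878, 92542 and 92094 in DMSO 12 h libraries, without overlap (log2 fold change 0.34, SE 0.10, limma adjusted p = 0.0338). At 48 h it was at 90821, 85572 and 108390.4 in GSI libraries, against 74145, 72298 and 79205 in DMSO libraries, again without overlap, with a change of 0.33 (SE 0.10, limma adjusted p = 0.061). RPL3, which lines the peptidyl transferase region of the large subunit, was at 157392, 135838 and 185397 in GSI 12 h libraries, against 116786, 140315 and 125329 in DMSO 12 h libraries. These overlapped, and the change of 0.32 (SE 0.13, limma adjusted p = 0.086) was not called without a replicate term. At 48 h RPL3 was at 128142, 116123 and 152797 in GSI libraries, against 102529, 112724 and 115376 in DMSO libraries, with no overlap and a change of 0.26 (SE 0.13, limma adjusted p = 0.187).

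Both members that fell at 12 h were those of lowest level per kilobase. RPL36A, near the tRNA exit site of the large subunit, was at 1416, 1373 and 1315 in GSI 12 h libraries, against 1948, 2164 and 1916 in DMSO 12 h libraries. The change was -0.55 (SE 0.09, limma adjusted p = 0.0033), and it was called without any 1 of the 6 libraries. RPL17, a protein at the exit of the peptide tunnel, was at 881, 1007 and 817 in GSI 12 h libraries, against 1122, 1429.7 and 1240.3 in DMSO 12 h libraries. Its change was -0.49 (SE 0.13, limma adjusted p = 0.0223). Both are partly covered by read-through genes, as given above, and the part of those genes in the difference was not tested. RPL17 was called without 3 of the 6 libraries when each was left out in turn, and RPL13A only without 1, the GSI 12 h replicate 2, with adjusted p values of 0.0117 to 0.128. The count of 3 was 1 without GSI 12 h replicate 1, GSI 12 h replicate 3 or DMSO 12 h replicate 2, 5 without GSI 12 h replicate 2, and 6 without both GSI libraries numbered 2.

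At 48 h more members lay below 0 between treatments. The median log2 fold change between GSI 48 h and DMSO 48 h was -0.08, with 55 of 76 negative, beside -0.00 over all genes and -0.11 over the 2481 other genes of high level. The family's share of recovered reads went the other way, at 4.34% ± 0.371 in GSI 48 h and 4.2% ± 0.0847 in DMSO 48 h libraries (SD, n = 3). With upper-quartile scaling the medians were 0.02 for large and -0.00 for small subunit genes, and that of all genes was 0.08, so the family stayed below all genes while its sign relative to 0 turned for the large subunit. Without a replicate term 3 members fell, RPS19 and RPL35 among them, and 0 rose, against 5.35% of all genes called lower and 4.33% called higher (9.68% either way). In 10 members every GSI 48 h library was below every DMSO 48 h library and in 2, RPL3 and RPL13A, every one was above, against 18.5% and 16.9% of all genes. Same-numbered libraries deviated together only weakly at this time (correlations of 0.12 to 0.20, beside 0.04 to 0.30 at 12 h). With the number as a block 11 members fell and 1 rose, against 15.5% of all genes called lower and 11.8% called higher. Use of the block at 48 h and not at 12 h rests on a cutoff of 0.1 for these correlations.

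RPS19 was at 37884, 44179.7 and 43511 in GSI 48 h libraries, against 51488, 54753 and 54938 in DMSO 48 h libraries, a log2 fold change of -0.36 (SE 0.09, limma adjusted p = 0.0307). RPL35, next to RPL17 around the tunnel exit, was at 21724, 24774 and 24489 in GSI 48 h libraries, against 29438, 28640.5 and 30233 in DMSO 48 h libraries, with a change of -0.32 (SE 0.08, limma adjusted p = 0.0277). Neither overlapped between treatments. Each was called in only 1 of 6 fits that left out a library of these groups, and the count of 3 was 0 without any 1 of the 3 DMSO 48 h libraries or without GSI 48 h replicate 1 or 3, 4 without GSI 48 h replicate 2, and 6 without both GSI libraries numbered 2. The 8 further members called lower with the block were RPL17, RPL27, RPL36A, RPL38, RPLP2, RPS10, RPS12 and RPS26, and the member called higher was RPL13A (0.33, adjusted p = 0.00851 with the block).

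**Figure D4:**
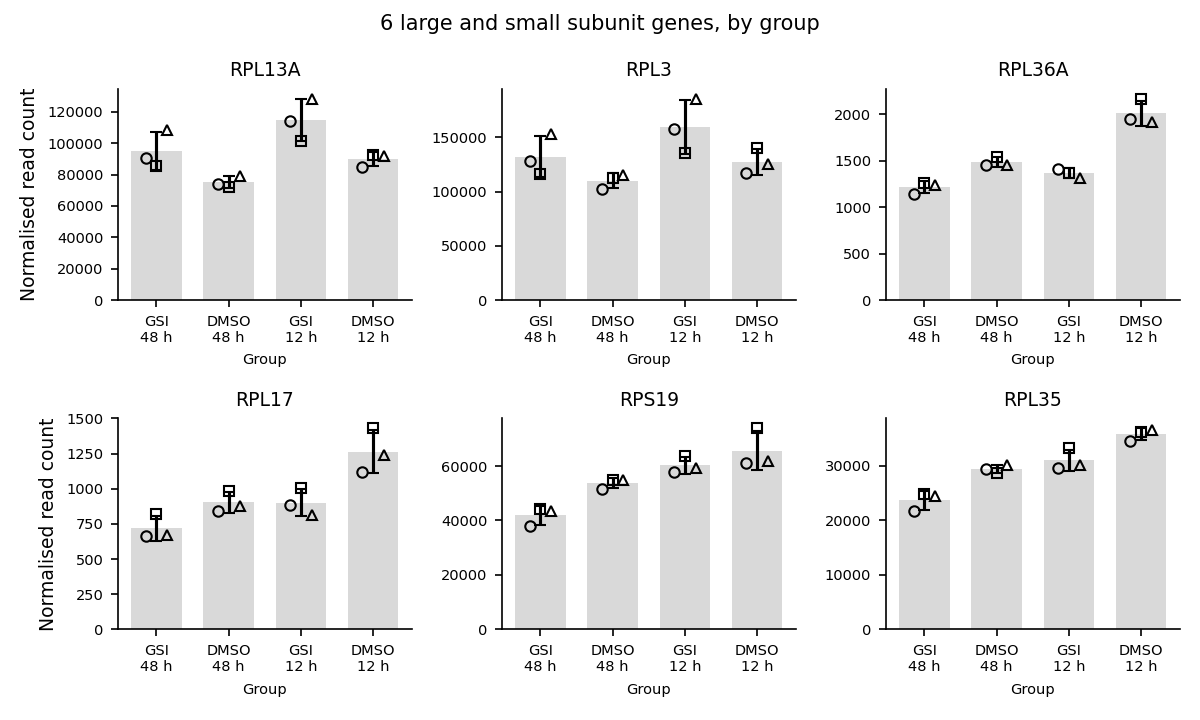
Normalised read counts of 6 genes in single libraries (symbols by library number), with bars at the mean of 3 and error bars of 1 SD, from an axis at 0. RPL13A lies above its DMSO libraries at both times, RPL36A and RPL17 lie below them at both, and RPS19 and RPL35 lie below them at 48 h, with RPL35 also below at 12 h.

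The remaining members at the ends of the treatment comparisons were not called without a replicate term. RPS20, a head protein of the small subunit, was at 67657, 69092 and 84677 in GSI 12 h libraries, against 60465, 65113 and 67229.8 in DMSO 12 h libraries, without overlap (0.19, SE 0.11, limma adjusted p = 0.235). RPS15A, which lies in the small subunit body, was at 13367, 13071 and 18039 in GSI 12 h libraries, against 10841, 13219 and 14462 in DMSO 12 h libraries, with overlap and a change of 0.20. Among the highest at 48 h was also RPL27A (0.13), with overlapping libraries. Over time, the smaller changes included those of RPS29 (-0.14), RPS20 (-0.11) and RPS10 (-0.12) under DMSO, and of RPL34 (-0.15), RPL36A (-0.17) and RPS26 (-0.18) under GSI.

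Over the 76 genes the log2 fold changes at 48 h and 12 h had a Pearson r of 0.83 and a Spearman rho of 0.83. This is only a description: the comparisons share no library, but same-numbered libraries of a treatment deviated together between times (0.72 to 0.85), which can by itself make such a correlation positive. RPL13A and RPL3 were the highest at both times, and RPL36A, RPL17 and RPL35 were among the lowest at both. RPS26, which contacts the mRNA at the exit channel of the small subunit, was at 19372, 24961 and 21533 in GSI 48 h libraries, against 22929, 27962 and 26683 in DMSO 48 h libraries, and at 24273, 28692 and 21714 in GSI 12 h libraries, against 25685, 33834 and 29859.6 in DMSO 12 h libraries. Its libraries overlapped at both times and its changes of -0.24 and -0.26 were not called without a replicate term, while at 48 h the block called it lower, as given above. In the test of the difference itself, the GSI effect at 48 h minus that at 12 h, limma called 0 members and 0 genes at all (0 members and 875 genes at an unadjusted p under 0.05). With the block within treatment it called 1 member, RPS10, lower, against 4.12% of all genes, and 0 members when any replicate number was left out. The hypoxia list, which differed by treatment in the same libraries, had median relative levels of 1.29, -0.16 and 0.72 in GSI 48 h, -1.11, -1.15 and -0.89 in DMSO 48 h, 1.83, 0.33 and 2.39 in GSI 12 h and -0.98, -1.22 and -1.09 in DMSO 12 h libraries, and its part in these differences was not tested.

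**Figure D5:**
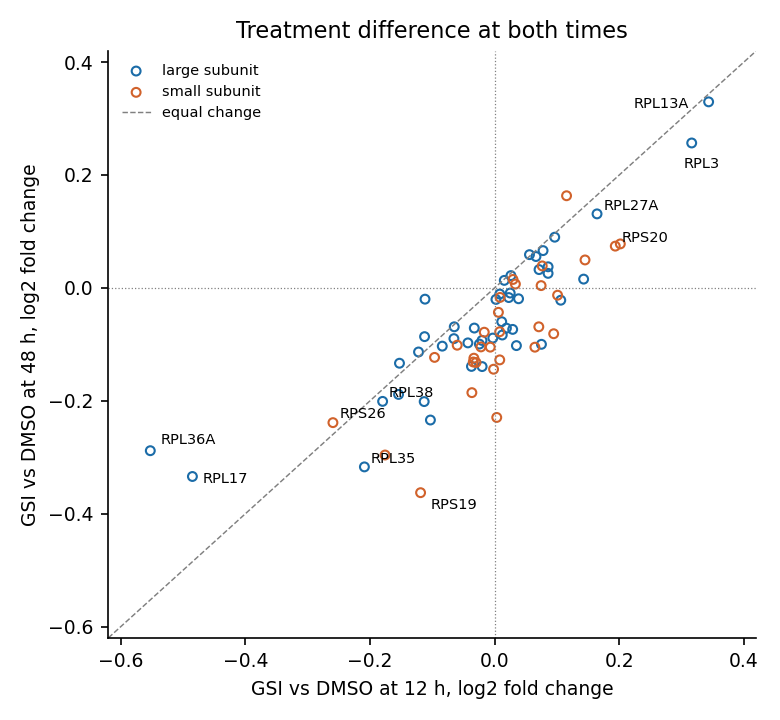
Log2 fold change of GSI against DMSO at 48 h (vertical) by that at 12 h (horizontal) for each of the 76 genes, large subunit in blue and small subunit in orange, with a dashed line of equal change. RPL13A and RPL3 lie at the upper right and RPL36A and RPL17 at the lower left, and 55 of the 76 genes lie below 0 on the vertical axis.

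Large and small subunit genes had close medians in all 4 comparisons. The median log2 fold change of the 46 large subunit genes minus that of the 30 small subunit genes was 0.02 for GSI at 48 h, 0.00 for GSI at 12 h, -0.02 for time under DMSO and 0.03 for time under GSI. Within single libraries the same difference between subunits ranged from -0.05 to 0.06. The SD of that difference between libraries of a group was 0.017 to 0.048, beside 0.06 to 0.13 for the family median. Reads of large subunit genes were 1.40 ± 0.0197 times those of small subunit genes in GSI 48 h, 1.35 ± 0.0354 in DMSO 48 h, 1.38 ± 0.0129 in GSI 12 h and 1.37 ± 0.0325 in DMSO 12 h libraries (SD, n = 3 each).

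By place in the ribosome, the 4 genes of the P stalk and its base (RPLP0, RPLP1, RPLP2 and RPL12) had medians of -0.34 for time under GSI, with 2 that fell, and -0.28 under DMSO, with 1 that fell. The P-stalk protein RPLP2 was at 39042, 43377 and 43165 in GSI 48 h libraries, against 46702, 47882 and 48413 in DMSO 48 h libraries, which did not overlap. Of 7 proteins around the peptide exit tunnel, 2 fell over time under GSI and 1 under DMSO. Of 13 kept small subunit head genes, 7 fell over time under GSI and 0 under DMSO without a replicate term, and of 17 body genes 5 and 1 fell, beside 2.37% and 2.51% of all genes called lower. With the block within treatment, which called 74 of all 76 members under either treatment, that contrast in counts between treatments was not there. Medians for time under GSI were -0.35 in the head and -0.30 in the body. These groups were chosen with earlier results of these data known and were not tested against one another.

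None of the 4 ribosomal protein genes that are mutated in T-cell leukaemia was called in any of the 4 comparisons without a replicate term. RPL5, which with RPL11 carries 5S rRNA and can bind the p53 regulator MDM2, was at 67899.7, 68826 and 84519 in GSI 48 h libraries, 65096, 71496 and 73990.5 in DMSO 48 h, 90558, 85292 and 111252 in GSI 12 h and 84333, 97634 and 88803 in DMSO 12 h libraries. RPL11 was at 59142, 61521 and 69990.4 in GSI 48 h libraries, 67577, 69009 and 66884 in DMSO 48 h, 73158, 72959 and 80525 in GSI 12 h and 74562, 82544 and 76371 in DMSO 12 h libraries. For both genes every 48 h library was below every 12 h library of its treatment, with changes of -0.37 and -0.25 under GSI and -0.36 and -0.20 under DMSO, and the treatments overlapped at either time. RPL22, which is recurrently deleted in this leukaemia, had changes over time of -0.31 under GSI and -0.28 under DMSO, and RPL10, at the peptidyl transferase site, -0.24 and -0.24.

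Further members with known separate roles were also measured. RPS6, the small subunit protein phosphorylated by S6 kinase, was at 95626, 93243 and 112229 in GSI 48 h libraries, 97157, 99542 and 100321 in DMSO 48 h, 119567, 117377 and 132988 in GSI 12 h and 117389.8, 127439 and 117367 in DMSO 12 h libraries. Times did not overlap under either treatment, and the changes over time of -0.30 under GSI and -0.29 under DMSO were called only with the block within treatment (limma adjusted p = 0.000271 and 0.000331). RPS27A, made as a fusion with ubiquitin, fell over time under GSI (-0.34, SE 0.08, limma adjusted p = 0.0219), as did RPSA (-0.43, SE 0.11, limma adjusted p = 0.0499), which doubles as a laminin receptor. The stalk protein RPLP1, the short basic proteins RPL39 and RPL41, the X-linked RPS4X, the platform protein RPS14 and the zinc-finger protein RPS27 had changes of -0.27, -0.28, -0.29, -0.29, -0.34 and -0.28 over time under GSI, none of them called without a replicate term. The 26 members that host small nucleolar RNAs in their introns had a median of -0.01 for GSI at 48 h and 0.06 at 12 h, and the 50 others had -0.10 and -0.00, while over time the medians were -0.32 and -0.32 under GSI and -0.27 and -0.24 under DMSO. RPL13A, RPL3 and RPL17 are among the hosts.

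Members with and without the pyrimidine start had close medians. Over time under GSI the 42 genes with it had a median of -0.32 and the 20 without it -0.32, and under DMSO they had -0.26 and -0.24. For GSI at 48 h the medians were -0.09 and -0.09, and at 12 h 0.01 and 0.00.

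Genes whose products work beside the ribosomal proteins were examined as lists. Of 19 kept translation genes known for TOP starts or translation roles, 0 rose and 0 fell over time under GSI (median -0.20), and 3 fell under DMSO (median -0.28), against 3.98% and 4.53% of all genes called either way. Those that fell under DMSO were NPM1, a nucleolar chaperone (-0.58, SE 0.13, limma adjusted p = 0.0208), PABPC1, the poly-A binding protein (-0.41, SE 0.09, limma adjusted p = 0.0249), and BTF3, a nascent-chain binding protein (-0.36, SE 0.09, limma adjusted p = 0.0381). Changes over time, called or not, were positive in 0 of the 19 under GSI and in 2 under DMSO. With treatment 0 fell at 48 h and 4 fell at 12 h, NPM1, EEF1D, HNRNPA1 and IPO5, of which NPM1 had the largest change (-0.56, SE 0.13, limma adjusted p = 0.0105), while the median of the list was 0.07 at both times and 5.35% and 11.4% of all genes were called lower. FAU, a fusion of a ubiquitin-like protein with a small subunit protein, was called in none of the 4 comparisons. It was at 13453, 16620.3 and 15900.2 in GSI 48 h libraries, against 18435, 19205 and 18393 in DMSO 48 h libraries, which did not overlap. Of 7 kept paralogs, RPL7L1 (-0.65) and RPL22L1 (-0.69), which replaces RPL22 in some ribosomes, fell with GSI at 12 h, where 11.4% of all genes did, and 0 were called elsewhere.

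Most assembly factors of ribosomal proteins fell with treatment at 12 h. Of 10 dedicated chaperones and import factors, 5 fell with GSI at 48 h and 8 at 12 h, with medians of -0.56 and -0.64, and 0 rose, beside 5.35% and 11.4% of all genes called lower. RRS1, which acts with RPF2 to place the 5S RNA with RPL5 and RPL11, was at 1125, 1841 and 1342 in GSI 48 h libraries, against 2862, 2996 and 2837 in DMSO 48 h libraries. It was at 1741, 2619 and 1436 in GSI 12 h libraries, against 4432, 5765 and 5309 in DMSO 12 h libraries. No GSI library reached a DMSO library of its time, the library numbered 2 was the highest of both GSI groups, with changes of -1.04 (SE 0.21, limma adjusted p = 0.0144) at 48 h and -1.46 (SE 0.21, limma adjusted p = 0.00196) at 12 h. GRWD1, a chaperone of RPL3, changed by -0.81 and -1.05, LTV1, a small subunit assembly factor, by -0.58 and -0.78, and RPF2 by -0.81 and -0.79, all called lower. Over time 1 of the 10, RPF2, was called lower under GSI and 2, RPF2 and RRS1, under DMSO, beside 2.37% and 2.51% of all genes. The change over time was positive in 0 of the 10 under either treatment, with medians of -0.22 under GSI and -0.36 under DMSO.

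Mitochondrial ribosomal proteins, encoded by nuclear genes and built into a separate ribosome, also fell with treatment in part. Of 74 kept genes, 22 fell and 0 rose with GSI at 48 h (median -0.34), and 33 fell and 0 rose at 12 h (median -0.37), beside 5.35% and 11.4% of all genes called lower. Over time 2 fell under GSI and 4 under DMSO, with medians of -0.22 and -0.21, and all genes were called lower at 2.37% and 2.51%. Changes over time were positive in 5 of the 74 under GSI and in 3 under DMSO. MRPS24 of the small mitochondrial subunit was at 3313, 4099.6 and 3584 in GSI 48 h libraries, against 5159, 5102 and 5333 in DMSO 48 h libraries, and at 4278, 5335 and 4329 in GSI 12 h libraries, against 6312, 7288 and 6544 in DMSO 12 h libraries. Treatments did not overlap at either time (changes -0.51 and -0.54, adjusted p = 0.018 and 0.00623 in limma). Those of smallest p were MRPS18B (-0.48), MRPL1 (-0.87), MRPS24 (-0.51) and MRPL15 (-0.70) with GSI at 48 h, MRPL15 (-0.87), MRPS12 (-0.81), MRPS24 (-0.54) and MRPS26 (-0.55) with GSI at 12 h, MRPS25 (-0.43), MRPS2 (-0.52), MRPL4 (-0.55) and MRPS26 (-0.43) over time under DMSO and MRPS2 (-0.47) and MRPS18B (-0.40) over time under GSI, each with its log2 fold change in parentheses. The difference between this family and the cytosolic one was not tested.

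In the mTORC1 and LARP1 list of 17 genes, 1 rose and 1 fell with GSI at 48 h, and 1 rose and 2 fell at 12 h, shares near the 9.68% and 21.5% of all genes called either way. DDIT4, a stress-induced inhibitor of mTORC1, was at 73075, 29167 and 87014 in GSI 48 h libraries, against 21017, 16272 and 24922 in DMSO 48 h libraries, and at 96054, 44649.5 and 114185 in GSI 12 h libraries, against 17486, 13414 and 16955 in DMSO 12 h libraries. Its changes were 1.48 (SE 0.38, limma adjusted p = 0.0313) and 2.31 (SE 0.38, limma adjusted p = 0.00311), and the library numbered 2 was the lowest of both GSI groups. LARP4, a relative that binds poly-A, fell with GSI at 12 h (-0.60). LARP1, which binds TOP mRNAs, fell with GSI at 12 h (-0.53, SE 0.09, limma adjusted p = 0.0033) and over time under DMSO (-0.45, SE 0.09, limma adjusted p = 0.0114). RPTOR, the subunit by which mTORC1 recognises its substrates, fell with GSI at 48 h (-0.29) and over time under GSI (-0.46). In each time comparison that was 1 of the 17 genes, beside 2.51% of all genes called lower under DMSO and 2.37% under GSI. Among 5 genes of the p53 checkpoint that ribosomal proteins feed into, CDKN1A, an inhibitor of cell cycle kinases, fell with GSI at both times (-0.998 at 48 h and -0.91 at 12 h), MDM4 rose at 48 h (0.67) and NOP53 rose at 12 h (0.47), beside 9.68% and 21.5% of all genes called either way at 48 h and 12 h.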

How the data were processed

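The tools listed in the submitters' processing notes are HTSeq 0.6.1, DESeq2 (with no version), TopHat2 2.0.10 and FastQC 0.10.1, and the build is hg19. The role of each tool, its settings, the annotation and the use of strand were not given there. As deposited by the authors, the values are a signal: gene counts scaled by library size factors. In all 12 libraries 100% of values were whole multiples of 1 read within a tolerance of 0.01, so reads were recovered. The count test on them, edgeR 4.0.16, called 4201, 1919, 931 and 740 genes (GSI at 12 h, GSI at 48 h, time under DMSO, time under GSI).

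The deposited unit was signal rather than counts, so the test was limma 3.58.1 (R 4.3.3, trended) on log2(value + 1), over 19281 genes with a value of at least 10 in 3 libraries and 4 group means, with calls at p under 0.05 after Benjamini-Hochberg adjustment. SE is the moderated standard error. Fold changes on this scale understate those of low genes. DESeq2 1.42.0 was an alternative. The fit was tested on simulated data.

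Symbols came from a table of identifiers (18259 of 19281 genes kept had one), and mRNA lengths and overlaps from GENCODE 29, using the shortest best-ranked coding transcript. Libraries share numbers in their labels. Numbers were taken to pair libraries where every correlation of deviations passed 0.1, which held at 48 h and over time. It also held for GSI 48 h against DMSO 12 h, for which no count with a block is given. For the 12 h treatment comparison the lowest was 0.04.

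Members, lists and the naming rule were chosen with earlier results of these data known. The rule took the 4 highest and 4 lowest fold changes per comparison and a fixed set of members. Genes of other lists were the called ones of smallest p. Marker, NOTCH1 and hypoxia lists are given by medians or ranges. Some members and list genes that the rule names are not reported here.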

Additional observations from a re-analysis of the deposited data

How the results depend on the processing

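No called member changed sign under any alternative. With upper-quartile scaling the large subunit median for GSI at 48 h became 0.02 and that of all genes 0.08. With the replicate block, used for pairing, 9 members were called for GSI at 12 h, where the numbers did not meet the pairing rule (36.1% of all genes were called), 12 at 48 h, 51 for time under DMSO and 65 under GSI. The block within treatment gave 74 and 74 over time and 1 for the change of the GSI effect. DESeq2 called 5 at 48 h, 25 over time under DMSO and 42 under GSI. Fitting only the groups compared gave 1 for GSI at 12 h, 12 over time under DMSO and 1 under GSI. A filter of any value above 0 gave 4 over time under DMSO. Without both GSI libraries numbered 2 the counts were 6 for GSI at 12 h, 6 at 48 h and 2 over time under GSI. Upper-quartile scaling gave 29 for GSI 48 h against DMSO 12 h. Leaving out 1 library, counts ranged from 1 to 5 for GSI at 12 h, 0 to 4 at 48 h, 0 to 8 and 3 to 29 over time under DMSO and GSI, and 28 to 58 for the added comparison. With the block within treatment and without a number they were 51 to 73 and 66 to 76 over time, and 0 for the change of the GSI effect. The large minus small difference ranged from -0.033 to 0.018 for GSI at 12 h, -0.0060 to 0.062 at 48 h, -0.038 to 0.00096 over time under DMSO, 0.012 to 0.041 under GSI and -0.024 to 0.037 for the added comparison. Shares of reads moved by less than 1 SD, but leaving out 1 of 3 libraries cannot move a mean that far. The stricter filter on values removed no member, so these checks could not have shown a shift. Single values were checked for the members selected by the naming rule. Of these 4250 values, 3787 kept their status, and those that were called also kept direction. Uncalled values in that number stayed within 1 SE of the main fit, and their direction was not checked. A further 160 lost a call, 260 gained one and 43 uncalled values moved by 1 SE or more. The comparison GSI 48 h against DMSO 12 h and the block without a number were chosen after seeing the data.

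Small changes were near the limit of 3 libraries a group: the median SE of a member was 0.10 on the log2 scale. Values are relative within a library, so a change of all mRNA would not be seen.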
